A study of Mus musculus with 27 samples.

Results

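Collagen chain genes are the genes whose products fold, in threes, into the collagen triple helix. They were taken as all genes with a probe set whose only annotated symbol has the form Col, a number, a and a number, and each gene was read on its brightest probe set. This gave 42 genes of 18193 measured, on 82 probe sets. The cells were mouse embryonic fibroblasts (MEF) of 3 lines, grouped by PKBalpha, the protein kinase that Akt1 encodes: wild type, knockout (ko PKBalpha) and a line labelled R (ko/rescued PKBalpha). All cells were female, at passage 45 and grown with 10% serum, and the labels give 24 h in culture before irradiation. Cells of each line were left untreated or were given 10 Gy of gamma rays and taken 4 h or 24 h later, with 3 arrays a group, which made 9 groups and 27 arrays. The titles set the groups; for 6 wild-type samples whose titles give an irradiation, the description says untreated. Each genotype was 1 line, so the spread between arrays is the spread within a line, and genotype and line cannot be told apart. How long the untreated cells were kept beyond the 24 h in culture is not given in the sources used here. Irradiation and time in culture therefore cannot be told apart.

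Fibroblasts are a main source of collagen. Fibrillar collagens such as types I, III and V form the banded fibrils that give tissue its tensile strength, type IV forms the sheet of the basement membrane, and type VI forms beaded filaments close to the cell surface. Fibril-associated collagens with interrupted helices (FACIT) coat the fibrils, the short-chain collagens form hexagonal lattices, and others span the plasma membrane or anchor epithelium to the layer beneath. A chain works only within a trimer, often with chains of other genes, so the relative levels of partner chains are part of what a collagen profile shows.

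Levels are array intensities, given per array in the order of replicates 0, 1 and 2 or as the geometric mean of 3 arrays, and differences are on the log2 scale with their standard error (SE). A gene was called at a Benjamini-Hochberg adjusted p below 0.05 in limma, adjusted over all 18193 genes. The background level was an intensity of 48.31, the highest reading on any array of 9 probe sets whose genes lie on the Y chromosome and are absent from female cells. Folds against a group below it are given as "at least". Levels of different genes rest on different probe sets and are not compared with each other. The line labelled R did not show the RNA it is labelled to have regained: Akt1 read 3549 in wild-type cells (2981 to 4546), 21.5 in the knockout (highest array 65.5) and 21.0 in the line labelled R (highest array 41.9). An added Akt1 that lacks the part this probe set reads would not be seen.

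A group of 5 arrays stood apart by the ratio of the 3' to the 5' probe set of the Gapdh control, a sign of RNA or labelling quality. On the log2 scale this ratio was between -0.187 and 0.16 on them and between -0.466 and -0.298 on the remaining 22. They were untreated wild type replicate 2, wild type at 4 h replicate 0, untreated knockout replicate 2, untreated line R replicate 1 and line R at 24 h replicate 2. Of 26 collagen genes above background in some group, Col4a1 read 1.06 higher on the log2 scale on these arrays than on the others of their groups, Col27a1 0.91, Col4a2 0.88, Col7a1 0.88, Col16a1 0.88, Col1a1 0.56 and Col6a3 0.48 higher, each on all 5 arrays. Col4a5 read lower by a mean difference of -0.65 on all of them, while the median of all genes was 0.01. Results below are therefore given with and without these arrays wherever that matters; this exclusion was chosen after the data were seen.

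Fibroblast markers were above background in all 9 groups (6 of 6; summed intensity 76545 to 89978 in wild-type, 79246 to 97943 in knockout and 71459 to 101466 in line R arrays). Within that list Thy1 read 1973, 11378 and 6035 and Pdgfrb 1808, 3509 and 2901 in wild type, knockout and line R. Both were higher in the last 2 lines, as were Col6a3, Col7a1 and Col5a1. Pdgfra (4363, 3531 and 3554) and Fn1 (24821, 18349 and 18678) were lower there than in wild type. Vim (26912, 26985 and 26047) and S100a4 (23895, 25029 and 24695) were near each other in all lines. The part of these markers in those collagen results was not tested. Of the chondrocyte markers 2 of 6 were above background in some group (summed intensity 249 to 627 in wild type, 523 to 1104 in the knockout and 766 to 1461 in line R), and the cartilage proteins Acan, Matn1, Cnmd and Hapln1 were below it in every group. Endothelial markers passed for 1 of 5 genes, Kdr (299.5 in wild type, 35.1 in the knockout and 42.5 in line R), with a summed intensity of 256 to 678 in wild type, 63.2 to 153 in the knockout and 91.8 to 149 in line R, and Pecam1, Cdh5, Tek and Emcn were below background throughout. Smooth muscle markers (5 of 6) summed to between 31183 and 43000 in wild type, between 40976 and 49238 in the knockout and between 26478 and 48789 in line R. Within that list Cnn1 read 1335, 147 and 9.12 in the wild-type, knockout and R lines. Osteoblast markers (2 of 4 above background in some group) summed to 312 to 1172 in wild type, 199.7 to 343 in the knockout and 164 to 278 in line R, with Ibsp and Dmp1 below background. Skeletal muscle markers (2 of 5) summed to 159.5 to 432, 56.1 to 192 and 64.2 to 162, with Myod1, Myog and Myf5 below background. Epithelial markers (3 of 5) summed to 137 to 331, 85.7 to 193 and 102 to 189, with Cdh1 and Cldn7 below background, and blood cell markers (3 of 5) to 302 to 478.5, 221 to 378 and 154 to 327.5, with Ptprc and Cd52 below background. In bulk RNA, fewer cells of a type and less RNA per cell cannot be told apart.

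Of the 42 collagen genes, 26 (61.9%) were above background in at least 1 group and 18 in all 9 groups, against 67.4% and 54% of all genes. The 16 genes below it in every group were Col2a1, Col24a1, Col4a3, Col4a4, Col6a4, Col6a5, Col9a2, Col9a3, Col19a1, Col20a1, Col22a1, Col10a1, Col13a1, Col17a1, Col15a1 and Col26a1. They include the cartilage chains Col2a1, Col9a2, Col9a3 and Col10a1, and Col4a3 and Col4a4, the partners of Col4a5 in the basement membrane of the kidney glomerulus. Between 19 and 23 collagen genes were above background in each group. The untreated knockout and line R each had 21 of them and untreated wild type had 22.

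The 3 lines differed in a part of the collagen genes by far more than the arrays of a line differed among themselves. In untreated cells 8 collagen genes were higher and 4 lower in the knockout than in wild type, where 7.77% and 9.83% of all genes were called in those directions. In line R against wild type 7 were higher and 6 lower, where 9.39% of all genes were called in either direction. Between line R and the knockout none was higher and 2 were lower, where 2.18% and 1.62% of all genes were called, and Col27a1 and Col8a1 had an unadjusted p below 0.05 without being called, as the 2 called had and 15.5% of all genes. Averaged over the 3 conditions, the knockout had 10 collagen genes higher and 7 lower than wild type (15.5% and 17.5% of all genes), and line R had 10 higher and 9 lower (18.1% and 16%). Line R had 7 higher and 7 lower than the knockout on that average (10.2% and 6.93%), a count of 14 that became 7 to 12 when 1 array was left out. It was 7 without untreated knockout replicate 0, and 8 without knockout replicate 1 at 4 h, knockout replicate 0 at 24 h or line R replicate 0 at 4 h. It was 9 without untreated knockout replicate 1, knockout replicate 2 at 4 h or at 24 h, untreated line R replicate 1 or 2, or line R replicate 1 or 2 at 4 h. Besides the genes described below, the counts hold Col6a4, Col25a1, Col2a1, Col15a1 and Col26a1, which were below background in both groups compared and are given no fold. The knockout and line R are both set against the same wild-type arrays, so their differences from wild type share that side. The median difference of the 42 genes was 0.11 for the untreated knockout and 0.22 for untreated line R against wild type, where the median of all genes was 0.00 and 0.06.

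**Figure D1:**
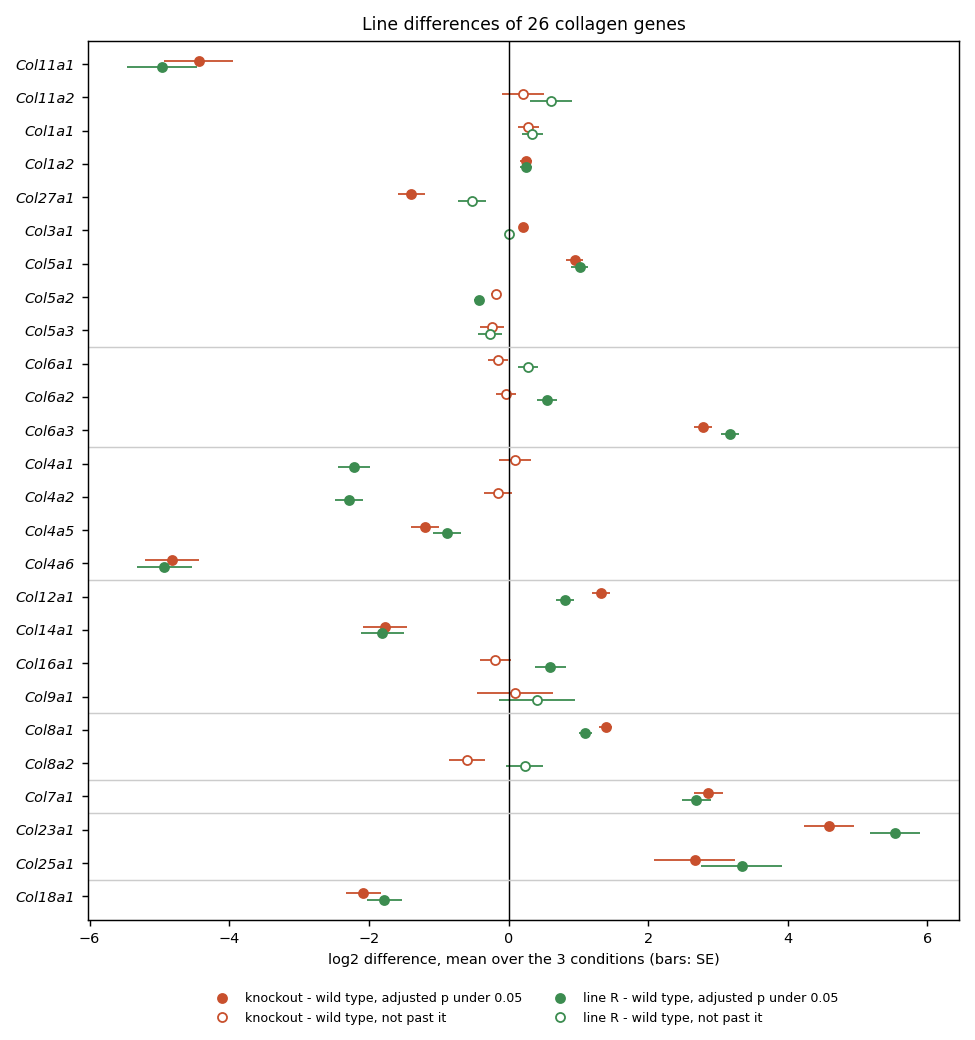
Differences of the knockout (orange) and line R (green) from wild type for the 26 collagen genes above background in some group, as the log2 difference averaged over the 3 conditions, with bars of 1 SE and grey lines between collagen classes. Filled points had a limma adjusted p below 0.05. Col6a3, Col7a1 and Col23a1 lie far to the right in both lines, Col4a6 and Col11a1 far to the left in both, and Col4a1 and Col4a2 to the left in line R alone. Points of Col4a6, Col9a1, Col11a1, Col11a2, Col14a1, Col23a1 and Col25a1 use readings mostly below background in at least 1 line. Their distance from 0 is therefore not a measured fold.

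Type VI collagen is built from 1 chain each of Col6a1, Col6a2 and Col6a3, and these chains did not follow each other between the lines. Col6a3, the largest chain of the filament, was 5.86-fold higher in the untreated knockout and 6.91-fold higher in untreated line R than in wild type. Col6a1 and Col6a2 were not called in either untreated comparison, and in line R they differed from wild type by 0.20 and 0.37. Col6a1 and Col6a2 are neighbours on chromosome 10, and Col6a3 lies on chromosome 1. The 250 bases before the annotated start of each are shown because the chains of 1 protein parted here; sequences are from RefSeq, on GRCm38.p6, for chr10:76726045-76726294 (minus strand), chr10:76623405-76623654 (minus strand) and chr1:90843972-90844221 (minus strand). Capitals mark matches on either strand to CCAAT (the CCAAT box), GGGCGG (the GC box), TATAAA (the TATA box) and TGANTCA (the site of AP-1 factors), and matches that touch or overlap run together.
Col6a1: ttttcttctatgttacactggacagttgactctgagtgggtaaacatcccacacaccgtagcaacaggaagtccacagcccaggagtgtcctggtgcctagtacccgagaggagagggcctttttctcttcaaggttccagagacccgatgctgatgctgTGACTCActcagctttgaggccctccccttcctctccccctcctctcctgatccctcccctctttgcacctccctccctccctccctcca
Col6a2: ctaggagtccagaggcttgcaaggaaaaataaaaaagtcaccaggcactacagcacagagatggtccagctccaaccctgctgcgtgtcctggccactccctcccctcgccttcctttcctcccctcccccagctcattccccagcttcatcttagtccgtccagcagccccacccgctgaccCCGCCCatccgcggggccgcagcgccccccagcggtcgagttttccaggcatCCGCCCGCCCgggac
Col6a3: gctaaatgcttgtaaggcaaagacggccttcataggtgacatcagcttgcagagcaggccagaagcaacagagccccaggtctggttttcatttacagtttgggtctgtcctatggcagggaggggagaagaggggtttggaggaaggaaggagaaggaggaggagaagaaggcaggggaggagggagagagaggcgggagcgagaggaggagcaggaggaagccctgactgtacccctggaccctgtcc
The Col6a1 window held 1 match to TGANTCA, the Col6a2 window 3 matches to GGGCGG, of which 1 pair overlapped, and the Col6a3 window none of the 4 motifs. Over 32817 windows of this length before annotated starts, 33.8% held CCAAT, 32.7% GGGCGG, 12.4% TATAAA and 6.75% TGANTCA. RefSeq windows were at hand for 33 collagen genes, and of their 36 windows 13 held CCAAT, 21 GGGCGG, 5 TATAAA and 1 TGANTCA. A match describes the letters only.

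In untreated cells Col6a3 read 1523, 1318 and 2695 in wild type, 9679, 10137 and 11065 in the knockout, and 10231, 14342 and 12137 in line R. At 4 h it read 1178, 874 and 866 in wild type, 6237, 6414 and 6991 in the knockout, and 8510, 9504 and 9252 in line R. At 24 h the readings were 1025, 999 and 1275, then 7554, 9686 and 10160, then 10759, 10836 and 15578 in the same order of lines. Every wild-type array (866 to 2695) lay below every knockout (6237 to 11065) and every line R array (8510 to 15578). The difference in untreated cells was 2.55 ± 0.22 (SE, n = 3 and 3 arrays; limma adjusted p = 5.4e-08) for the knockout and 2.79 ± 0.22 (adjusted p = 1.4e-08) for line R, and both calls held under all 16 alternatives. Col6a1 read 7253, 7117 and 11995 in untreated wild type, 7158, 7683 and 9718 in the knockout, and 7271, 12696 and 10208 in line R, so the groups overlapped. The knockout differed from wild type by -0.07 ± 0.23 in Col6a1 (95% interval -0.56 to 0.42) and by -0.08 ± 0.24 in Col6a2 (-0.58 to 0.41). Averaged over the 3 conditions, line R was higher than wild type in Col6a2 by 0.55 ± 0.14 (adjusted p = 0.003), and higher than the knockout in Col6a1 by 0.43 ± 0.14 (adjusted p = 0.033), Col6a2 by 0.59 ± 0.14 (adjusted p = 0.0044) and Col6a3 by 0.38 ± 0.13 (adjusted p = 0.044), all with overlapping arrays.

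Type IV collagen gave a different split. Col4a1 and Col4a2 together form the common trimer of basement membranes. In untreated cells each was alike in wild type and knockout and about 5-fold lower in line R. At 24 h the geometric mean of Col4a1 was lower in wild type (2865) than in the knockout (4362), with line R lowest (927). Col4a5 and Col4a6 form another trimer of basement membranes such as that of smooth muscle. Col4a6 was near or below background in both lines without Akt1 signal. Col4a5 was lower in the knockout, and in line R it was called lower only on the average over the 3 conditions. Both pairs lie head to head in the genome. On GRCm38.p6 the 300-base RefSeq windows around the starts of Col4a1 and Col4a2 overlap by 78 bases on opposite strands, and the starts of Col4a5 and Col4a6 lie 1343 bases apart on opposite strands of chromosome X. The 250 bases before the starts of Col4a2 (chr8:11312555-11312804, plus strand), Col4a5 (chrX:141475169-141475418, plus strand) and Col4a6 (chrX:141474077-141474326, minus strand) are shown as the sequence near the shared starts, with capitals as above.
Col4a2: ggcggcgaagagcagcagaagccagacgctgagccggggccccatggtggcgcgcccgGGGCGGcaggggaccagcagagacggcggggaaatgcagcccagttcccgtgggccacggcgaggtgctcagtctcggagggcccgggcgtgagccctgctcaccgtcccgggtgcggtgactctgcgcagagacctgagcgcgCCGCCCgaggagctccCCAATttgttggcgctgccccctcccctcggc
Col4a5: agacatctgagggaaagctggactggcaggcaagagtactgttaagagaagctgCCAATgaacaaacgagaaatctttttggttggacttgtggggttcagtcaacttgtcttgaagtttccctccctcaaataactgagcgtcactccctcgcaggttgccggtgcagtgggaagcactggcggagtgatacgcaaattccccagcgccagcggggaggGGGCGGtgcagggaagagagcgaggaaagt
Col4a6: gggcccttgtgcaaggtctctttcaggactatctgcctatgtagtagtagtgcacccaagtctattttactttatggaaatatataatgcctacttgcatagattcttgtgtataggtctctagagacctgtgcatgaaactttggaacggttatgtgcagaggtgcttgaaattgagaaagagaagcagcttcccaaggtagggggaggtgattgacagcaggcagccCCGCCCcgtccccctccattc
The Col4a2 window held 1 CCAAT and 2 GGGCGG matches, that of Col4a5 1 of each, and that of Col4a6 1 GGGCGG match. None of these windows held TATAAA or TGANTCA.

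Col4a1 read 3237, 3614 and 6478 in untreated wild type, 3358, 3336 and 6543 in the knockout, and 556, 1625 and 698 in line R. Of these the high reading in each line came from an array of the high Gapdh ratio. The line R arrays lay below all others at each time: over the 9 arrays of a line they ran from 556 to 1625, against 2740 to 7912 in wild type and 3336 to 6543 in the knockout. At 4 h Col4a1 read 7912, 6109 and 3308 in wild type, 4111, 4462 and 4401 in the knockout, and 820, 769 and 903 in line R, and at 24 h 2890, 2969 and 2740, then 4031, 3688 and 5585, then 674, 734 and 1610. Untreated line R differed from the knockout by -2.29 ± 0.40 (limma adjusted p = 0.0026; 4.88-fold lower) and from wild type by -2.30 ± 0.40 (adjusted p = 0.0003). The second Col4a1 probe set gave -2.42 and -2.17 for the same comparisons, past the threshold in both.

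Col4a2 moved with it. It read 1736, 1550 and 2793 in untreated wild type, 1428, 1513 and 2474 in the knockout, and 256, 655 and 353 in line R. At 4 h the readings were 3019, 2511 and 1558, then 1469, 1496 and 1753, then 334, 392 and 303, and at 24 h 1366, 1410 and 1565, then 1411, 1637 and 2245, then 297, 360 and 722. No line R array reached an array of the other lines. Line R was 4.49-fold lower than the knockout (-2.17 ± 0.35, limma adjusted p = 0.0014) and 5.03-fold lower than wild type (-2.33 ± 0.35, adjusted p = 6.5e-05). Col4a1 and Col4a2 were the 2 collagen genes called between untreated line R and the knockout. Without the 5 arrays of high Gapdh ratio the differences were -2.43 and -2.29 (adjusted p = 0.00016 and 0.00032), and in a fit on the 6 compared arrays alone neither was called (adjusted p = 0.25 and 0.22).

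Col4a6 read 1393, 1262 and 411 in untreated wild type, 35.7, 55.0 and 9.74 in the knockout, and 15.5, 24.8 and 27.1 in line R. At 4 h it read 650, 836 and 1099, then 31.6, 49.6 and 41.0, then 9.07, 46.6 and 57.6, and at 24 h 1131, 1166 and 1150, then 56.5, 14.7 and 56.0, then 41.6, 52.9 and 51.4. Single arrays of the other lines rose slightly above background, up to 57.6, and the line R mean at 24 h lay at it (48.38). The lowest wild-type array, 411, was the untreated one of high Gapdh ratio and still lay far above the highest of the other lines. Wild type was at least 18.6-fold above the untreated knockout (difference -5.07 ± 0.67, limma adjusted p = 1.4e-05) and at least 18.6-fold above line R (-5.36 ± 0.67, adjusted p = 6.5e-06). The second probe set of Col4a6 differed in the same direction, past the threshold in both. Its neighbour Col4a5 kept a clear signal in all lines: 3847, 3872 and 1516 in untreated wild type, 1525, 1409 and 1248 in the knockout, and 1454, 1001 and 2782 in line R. At 4 h Col4a5 read 3006, 2863 and 3406, then 1197, 1490 and 1437, then 1898, 2600 and 1345, and at 24 h 4869, 5169 and 4090, then 1923, 1946 and 1473, then 2568, 2485 and 1670. The untreated groups overlapped through the wild-type array of high Gapdh ratio at 1516. The knockout was 2.03-fold lower when untreated (-1.02 ± 0.35, adjusted p = 0.045, past the threshold under 8 of 16 alternatives) and 2.30-fold lower averaged over the 3 conditions (-1.20 ± 0.20, adjusted p = 6.6e-05). Line R was 1.84-fold lower than wild type on that average (-0.88 ± 0.20, adjusted p = 0.0015). In untreated cells line R was not called against wild type (-0.83, limma adjusted p over probe sets 0.16). Over the 9 arrays of a line, line R ran from 1001 to 2782 and overlapped wild type (1516 to 5169). The endothelial marker Kdr and, of the smooth muscle list, Cnn1 and Smtn (1508, 533 and 524) read highest in wild type as Col4a6 did, while Acta2 (23971, 31887 and 24295) and Tagln (11616, 13033 and 9245) did not, and the part of these cell types in the result was not tested.

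**Figure D2:**
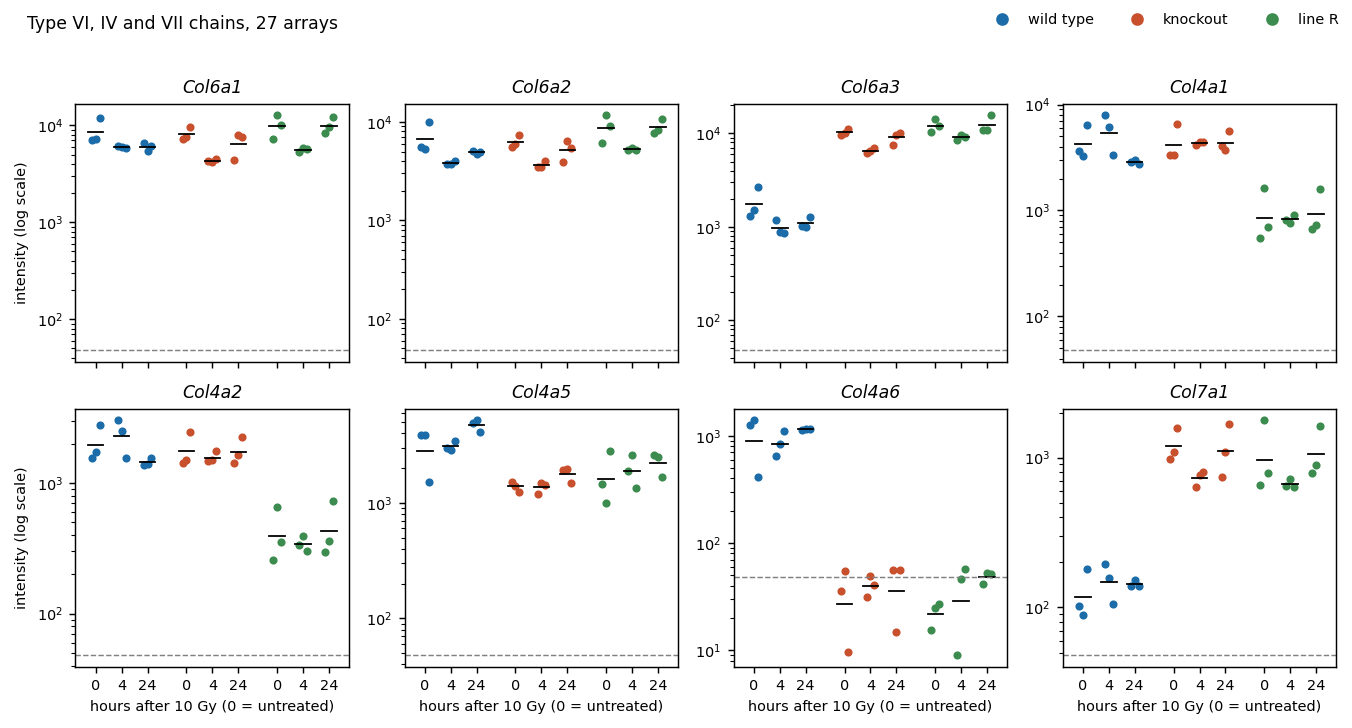
Intensity on a log scale on each of the 27 arrays for the type VI, type IV and type VII chains, by line (wild type blue, knockout orange, line R green) and hours after 10 Gy. Bars are geometric means of 3 arrays and the dashed line is the background level of 48.31. Col6a3 is low in wild type alone, Col4a1 and Col4a2 are low in line R alone, and Col4a6 lies around or below the dashed line in the knockout and line R. The group means of the type VI chains are lower at 4 h than in untreated cells in each line.

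Col7a1, the single chain of the anchoring fibrils that hold the epidermis to the dermis, and Col23a1, a collagen that spans the plasma membrane, were the other genes with far higher levels in both lines without Akt1 signal. Col23a1 was at background in wild type. Their sequences before the start (Col7a1 chr9:108953336-108953585 and Col23a1 chr11:51289670-51289919, both plus strand, RefSeq on GRCm38.p6) are shown with the same marks, since Col7a1 and Col23a1 had, with Col6a3, the largest rises above background.
Col7a1: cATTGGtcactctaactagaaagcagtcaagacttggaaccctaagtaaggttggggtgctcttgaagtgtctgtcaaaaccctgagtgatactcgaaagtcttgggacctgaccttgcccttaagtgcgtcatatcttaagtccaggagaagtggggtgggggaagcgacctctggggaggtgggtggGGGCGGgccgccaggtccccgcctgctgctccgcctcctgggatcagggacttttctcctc
Col23a1: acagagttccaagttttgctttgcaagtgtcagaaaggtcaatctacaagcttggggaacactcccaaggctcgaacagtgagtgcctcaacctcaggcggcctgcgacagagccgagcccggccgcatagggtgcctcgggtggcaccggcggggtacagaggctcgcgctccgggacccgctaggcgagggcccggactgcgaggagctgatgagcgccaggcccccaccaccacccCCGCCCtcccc
The Col7a1 window held 1 CCAAT and 1 GGGCGG match and the Col23a1 window 1 GGGCGG match.

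Col7a1 read 89.4, 103 and 180 in untreated wild type, 980, 1082 and 1582 in the knockout, and 652, 1773 and 787 in line R. At 4 h it read 195, 157 and 105, then 638, 764 and 807, then 643, 715 and 637, and at 24 h 139, 153 and 140, then 741, 1088 and 1667, then 793, 894 and 1637. All 9 wild-type arrays (89.4 to 195) lay below all 18 others. The untreated knockout was 10.1-fold higher (3.33 ± 0.37, limma adjusted p = 1.5e-06) and line R 8.21-fold higher (3.04 ± 0.37, adjusted p = 4.5e-06). Col23a1 read 29.9, 17.0 and 8.39 in untreated wild type, 277, 275 and 364 in the knockout, and 518, 559 and 740 in line R. At 4 h it read 34.0, 2.25 and 6.94, then 169, 136 and 166, then 204, 215 and 260, and at 24 h 8.86, 6.91 and 4.27, then 153, 345 and 294, then 637, 664 and 534. No wild-type array rose above background, and every other array did. The rise was at least 6.26-fold in the untreated knockout (4.22 ± 0.63, adjusted p = 5.1e-05) and at least 12.4-fold in line R (5.21 ± 0.63, adjusted p = 3.8e-06). Both other Col23a1 probe sets were past the threshold in the same direction. Col25a1, another transmembrane collagen, was called higher in both lines but was below background in every untreated group (39.1 in the knockout, 37.3 in line R, 3.95 in wild type), so no fold is given.

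Among the fibrillar collagens Col11a1 and Col5a1 were called between untreated lines on their brightest probe sets, and the other measured chains were not. Col11a1, a chain of type XI collagen that sets fibril diameter in cartilage and in some mesenchymal cells, read 781, 882 and 1389 in untreated wild type, 27.1, 57.4 and 55.3 in the knockout, and 1.38, 39.3 and 59.9 in line R. At 4 h it read 632, 537 and 341, then 27.3, 26.1 and 38.6, then 37.7, 27.4 and 11.1, and at 24 h 759, 678 and 715, then 22.0, 19.8 and 37.6, then 27.3, 33.2 and 43.4. Every wild-type array was far above background and both other lines lay near or below it. Wild type was at least 20.4-fold above the untreated knockout (difference -4.48 ± 0.87, limma adjusted p = 0.00085) and at least 20.4-fold above line R (adjusted p = 3.6e-05). The fitted difference from line R, -6.06, rests on readings around or below background and was -4.35 without untreated line R replicate 0, the array at 1.38 (adjusted p = 1.2e-06). The second Col11a1 probe set differed by -3.58 and -5.07, past the threshold for line R only (adjusted p = 0.068 and 0.0074 over probe sets). Of the chondrocyte markers, Acan, Matn1, Cnmd and Hapln1 were below background in wild type too, and Sox9 read lower there (272) than in the knockout (640) and line R (976). Of other lists, the osteoblast marker Alpl (477, 150 and 90.4) and the muscle gene Actn3 (205, 64.1 and 30.8) read highest in wild type as Col11a1 did. So did the epithelial markers Krt8 (79.3, 24.6 and 22.8) and Krt18 (45.52, 17.69 and 14.11). Of the same lists Sp7 (66.94, 55.35 and 69.2), Ckm (20.44, 28 and 37.15) and Epcam (59.03, 67.66 and 64.37) did not. The part of these markers in the result was not tested.

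Col5a1, the chain that starts fibril assembly with Col5a2, rose in both lines. It read 4165, 4679 and 5011 in untreated wild type, 8737, 9393 and 11093 in the knockout, and 7831, 11975 and 8971 in line R. At 4 h the readings were 5260, 3989 and 3293, then 6671, 6598 and 7361, then 6761, 7536 and 6598, and at 24 h 3989, 3935 and 4524, then 7282, 8547 and 10090, then 8729, 8239 and 14043. All wild-type arrays (3293 to 5260) lay below all others. The untreated knockout was 2.10-fold higher (1.07 ± 0.20, limma adjusted p = 0.00067) and line R 2.05-fold higher (1.04 ± 0.20, adjusted p = 0.00089). Col5a2 did not follow: untreated levels were 12833, 12830 and 10715 in wild type, knockout and line R, and the 95% interval of the knockout difference ran from -0.27 to 0.26. Averaged over the conditions it was lower in line R than in wild type (-0.42 ± 0.07, adjusted p = 0.00012). Col27a1, a fibrillar chain best known from cartilage, was 2.62-fold lower in the knockout than in wild type averaged over the conditions (-1.39 ± 0.20, adjusted p = 1.3e-05), with 9 knockout arrays from 145 to 436 below 9 wild-type arrays from 473 to 1029. Line R ran from 228 to 995 and overlapped both, and it was higher than the knockout by 0.87 ± 0.20 (adjusted p = 0.0044).

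On their brightest probe sets the chains of types I and III, the bulk collagens of connective tissue, were near each other in all lines. Untreated levels of Col1a1 were 16271 in wild type, 19211 in the knockout and 19352 in line R, those of Col1a2 27429, 31278 and 30449, and those of Col3a1 26476, 28831 and 25082, none of them called. Averaged over the conditions, Col1a2 was 1.19-fold higher in the knockout (0.25 ± 0.09, limma adjusted p = 0.029) and in line R (0.25 ± 0.09, adjusted p = 0.029), and Col3a1 1.15-fold higher in the knockout (0.21 ± 0.06, adjusted p = 0.017), all with overlapping arrays. The probe sets of Col1a2 did not agree on the size or on the call. For the untreated knockout against wild type the 2 dimmer ones gave 0.66 and 1.39, past the threshold (limma adjusted p over probe sets 0.018 and 0.021). The brightest gave 0.19, so for Col1a2 the closeness of these lines rests on that probe set. Col5a3 (40.4 to 114 over all arrays) and Col11a2 (4.82 to 64.0) stayed close to background and were not called between untreated lines.

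The remaining classes each held genes that followed the line. Col8a1, a short-chain collagen of vessel walls and of the cornea, read 2342, 2271 and 1637 in untreated wild type, 5470, 5330 and 5766 in the knockout, and 4403, 4426 and 4324 in line R. At 4 h it read 2116, 2506 and 1877, then 5852, 6457 and 6312, then 4967, 6007 and 5211, and at 24 h 2596, 2732 and 2314, then 6285, 4941 and 6839, then 4111, 4553 and 5510. Wild type (1637 to 2732) did not overlap the others. The untreated difference was 1.42 ± 0.16 in the knockout (2.68-fold, limma adjusted p = 1.2e-06) and 1.09 ± 0.16 in line R (2.13-fold, adjusted p = 3.1e-05). Of the other probe sets of Col8a1, neither was past the threshold, at 0.99 and 0.97 in the knockout and 0.78 and 0.25 in line R.

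Col12a1, a FACIT collagen on the surface of type I fibrils, read 208, 285 and 181 in untreated wild type, 559, 571 and 580 in the knockout, and 405, 551 and 436 in line R. At 4 h the readings were 207, 310 and 196, then 492, 474 and 523, then 339, 457 and 279, and at 24 h 295, 223 and 221, then 609, 708 and 816, then 455, 479 and 327. The knockout (474 to 816) lay above wild type (181 to 310) on every array, while line R overlapped wild type at 4 h. The untreated knockout was 2.58-fold higher (1.37 ± 0.22, limma adjusted p = 0.00012) and line R 2.08-fold higher (1.06 ± 0.22, adjusted p = 0.0014). A second probe set of Col12a1 gave 1.71 and 1.59, past the threshold, and the mean of all 4 probe sets, of which 2 lay below background, was not called (adjusted p = 0.07 and 0.15). Col14a1, a related FACIT collagen, was at background in the knockout and line R. In untreated wild type it read 57.8, 177 and 63.0 (mean 86.4), at least 1.79-fold above line R (difference -2.31 ± 0.54, adjusted p = 0.0041). In a fit on the compared arrays alone Col14a1 was not called (limma adjusted p = 0.13). Col16a1 read 968, 903 and 1502 in the untreated lines and Col9a1 20.6, 49.2 and 26.4, neither of them called. Averaged over the conditions, Col16a1 was 1.72-fold higher in line R than in the knockout (0.79 ± 0.22, adjusted p = 0.015).

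Col18a1, a collagen of the multiplexin class whose end fragment is endostatin, read 433, 275 and 537 in untreated wild type, 120, 190 and 85.3 in the knockout, and 71.5, 167 and 133 in line R. At 4 h it read 197, 416 and 266, then 32.6, 95.5 and 29.3, then 67.4, 74.0 and 69.2, and at 24 h 290, 502 and 451, then 105, 160 and 71.3, then 137, 131 and 138. Wild-type arrays (197 to 537) lay above all others. The untreated difference was -1.68 ± 0.44 for the knockout (3.20-fold lower, limma adjusted p = 0.0093) and -1.78 ± 0.44 for line R (3.42-fold lower, adjusted p = 0.0059), and without the 5 arrays of high Gapdh ratio the knockout call was lost (-1.19, adjusted p = 0.13). The second probe set of Col18a1 gave -1.91 and -1.54, past the threshold in both. Col8a2, a partner of Col8a1, read 167, 131 and 192 in the untreated lines and was not called there. Averaged over the conditions it was 1.78-fold higher in line R than in the knockout (0.83 ± 0.26, limma adjusted p = 0.03), and not past the threshold without the 5 arrays of high Gapdh ratio (0.68, adjusted p = 0.062).

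**Figure D3:**
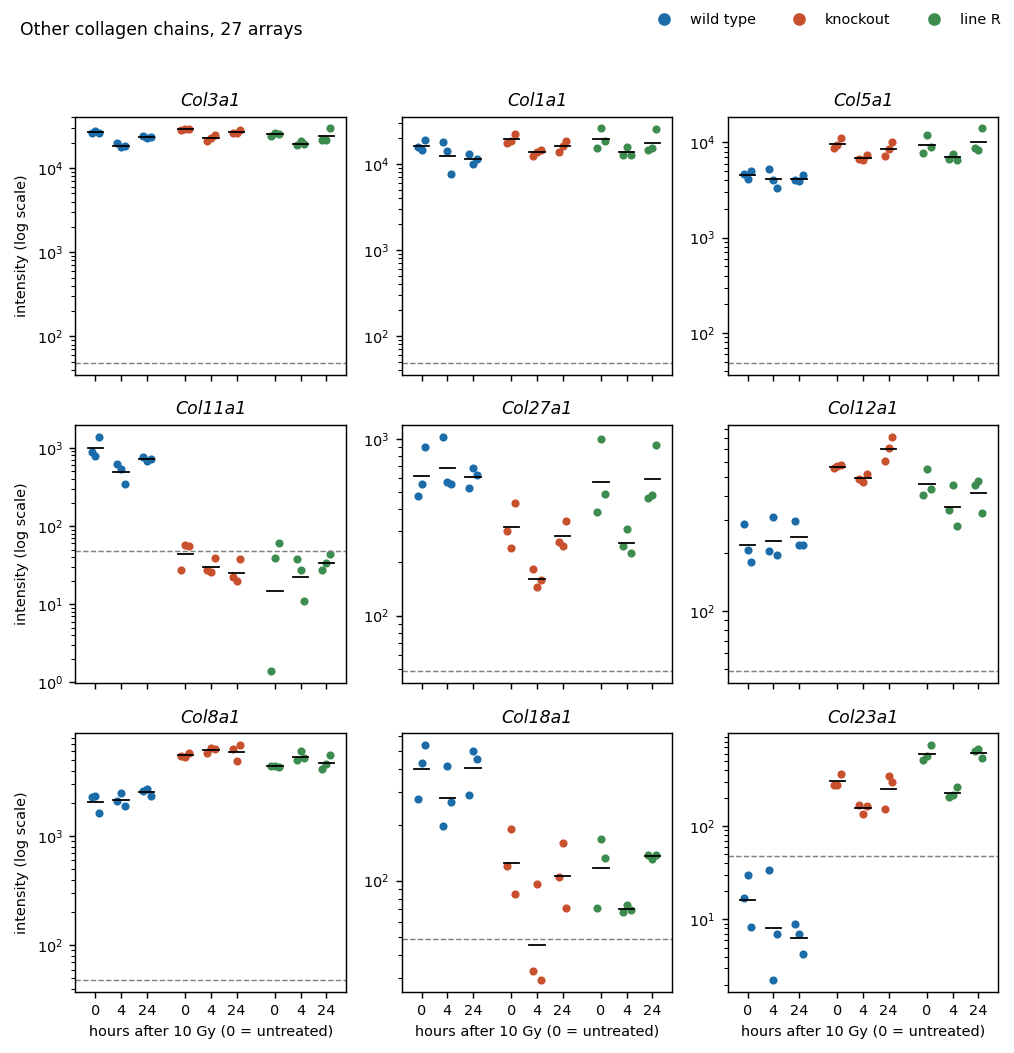
Intensity on a log scale on each of the 27 arrays for 9 further collagen genes, by line (wild type blue, knockout orange, line R green) and hours after 10 Gy. Bars are geometric means of 3 arrays and the dashed line is the background level of 48.31. Col11a1 and Col18a1 are highest in wild type, the group means of Col5a1, Col12a1, Col8a1 and Col23a1 are lowest there, and the 3 arrays of Col3a1 at 4 h lie below the untreated ones in each line.

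Radiation was followed at 4 h by lower levels of several collagen genes and by no rise past the threshold. In wild type 2 of 42 collagen genes were lower at 4 h and none higher, where 1.74% of all genes were called lower and 1.51% higher. Col3a1, the chain of type III collagen, ran from 25836 to 27431 in untreated cells and from 17602 to 19823 at 4 h, without overlap (-0.52 ± 0.11, 1.43-fold lower, limma adjusted p = 0.016). Col6a3 ran from 1318 to 2695 in untreated cells and from 866 to 1178 at 4 h, also without overlap (-0.87 ± 0.22, 1.82-fold lower, adjusted p = 0.034). The calls were near the threshold. That of Col3a1 was lost without untreated replicate 0 or 4 h replicate 1 (adjusted p = 0.052 and 0.06), and that of Col6a3 without untreated replicate 2 or 4 h replicates 1 or 2 (adjusted p = 0.16, 0.11 and 0.094). In a fit on the 6 compared arrays neither was called (adjusted p = 0.35 and 0.43), and without the 5 arrays of high Gapdh ratio both were (adjusted p = 0.0079 and 0.034).

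In the knockout and in line R no collagen gene was called at 4 h in limma on the brightest probe sets, where 0.368% and 0.978% of all genes were called. Of the 42 collagen genes 10 in the knockout and 7 in line R had an unadjusted p below 0.05, as had 13% and 14.7% of all genes. The second, dimmer probe set of Col3a1 differed by -0.82 in the knockout and -0.94 in line R (adjusted p over probe sets 0.085 and 0.041), past the threshold in line R, where the brightest gave -0.34 and -0.36. The differences of Col6a1, Col6a2 and Col6a3 were negative, as in wild type. In the knockout, Col6a1 read 7158, 7683 and 9718 untreated and 4284, 4223 and 4489 at 4 h (-0.91 ± 0.23, limma adjusted p = 0.085), and in line R 7271, 12696 and 10208 against 5359, 5859 and 5656 (-0.80 ± 0.23, adjusted p = 0.1). In both lines the 4 h arrays lay below all untreated ones. Col6a2 differed by -0.79 ± 0.24 in wild type, -0.79 ± 0.24 in the knockout and -0.71 ± 0.24 in line R (adjusted p = 0.072, 0.14 and 0.15), and Col6a3 by -0.65 ± 0.22 in the knockout (adjusted p = 0.19).

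In each line more collagen genes had a difference below 0 than above it at 4 h (24, 34 and 27 of 42 in wild type, knockout and line R). The change at 4 h was therefore also averaged over the 3 lines, a test added after the data were seen. On that average 10 of 42 collagen genes were lower and none higher, where 8.92% of all genes were called lower and 6.55% higher. Of the 26 genes above background in some group, 22 had a difference below 0, with a median of -0.34 against -0.03 over all genes. All 3 type VI chains fell: Col6a1 by -0.74 ± 0.14 (95% interval -1.02 to -0.46; limma adjusted p = 0.0011), Col6a2 by -0.76 ± 0.14 (adjusted p = 0.001) and Col6a3 by -0.65 ± 0.13 (adjusted p = 0.0019). Of the fibrillar genes 4 of 11 fell, Col3a1 by -0.40 ± 0.06 (adjusted p = 0.00041), Col1a1 by -0.46 ± 0.15 (adjusted p = 0.046), Col5a1 by -0.37 ± 0.12 (adjusted p = 0.038) and Col27a1 by -0.65 ± 0.20 (adjusted p = 0.032). The others were Col8a2 at -0.97 ± 0.26 (adjusted p = 0.014), Col18a1 at -0.91 ± 0.25 (adjusted p = 0.019) and Col23a1 at -1.12 ± 0.36 (adjusted p = 0.04), the last of which was below background in wild type, so that its values in the other lines carry it. In line R Col23a1 read 518, 559 and 740 untreated and 204, 215 and 260 at 4 h. Col27a1 did not fall in wild type, where its geometric mean was 620 untreated and 688 at 4 h. Its values in the knockout (316 and 162) and in line R (572 and 259) carry its average.

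None of the type IV genes was called on that average, and Col4a1 and Col4a2 differed by 0.12 ± 0.23 and -0.04 ± 0.20. Nor was Col5a2 (-0.05 ± 0.07) or Col8a1, which leaned upward (0.18 ± 0.09). Of the 9 untreated arrays 3 had the high Gapdh ratio and of the 9 arrays at 4 h 1 had it, and these arrays read higher in the type VI chains. Without them the differences were smaller, -0.56 for Col6a1, -0.55 for Col6a2 and -0.53 for Col6a3, and stayed past the threshold (adjusted p = 0.0088, 0.0053 and 0.0016), as did Col3a1 (-0.41, adjusted p = 0.00048). Col8a2 and Col18a1 were no longer called (adjusted p = 0.1 and 0.097). The calls of Col3a1, Col6a1, Col6a2 and Col6a3 held under all 28 alternatives run, while that of Col1a1 held under 12 of 28, those of Col5a1 and Col27a1 under 15 of 28 and that of Col23a1 under 9 of 27. The count of 10 fell to 6 without wild type at 4 h replicate 2, untreated knockout replicate 2, knockout at 4 h replicate 1, untreated line R replicate 1, or line R at 4 h replicate 0 or 2.

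**Figure D4:**
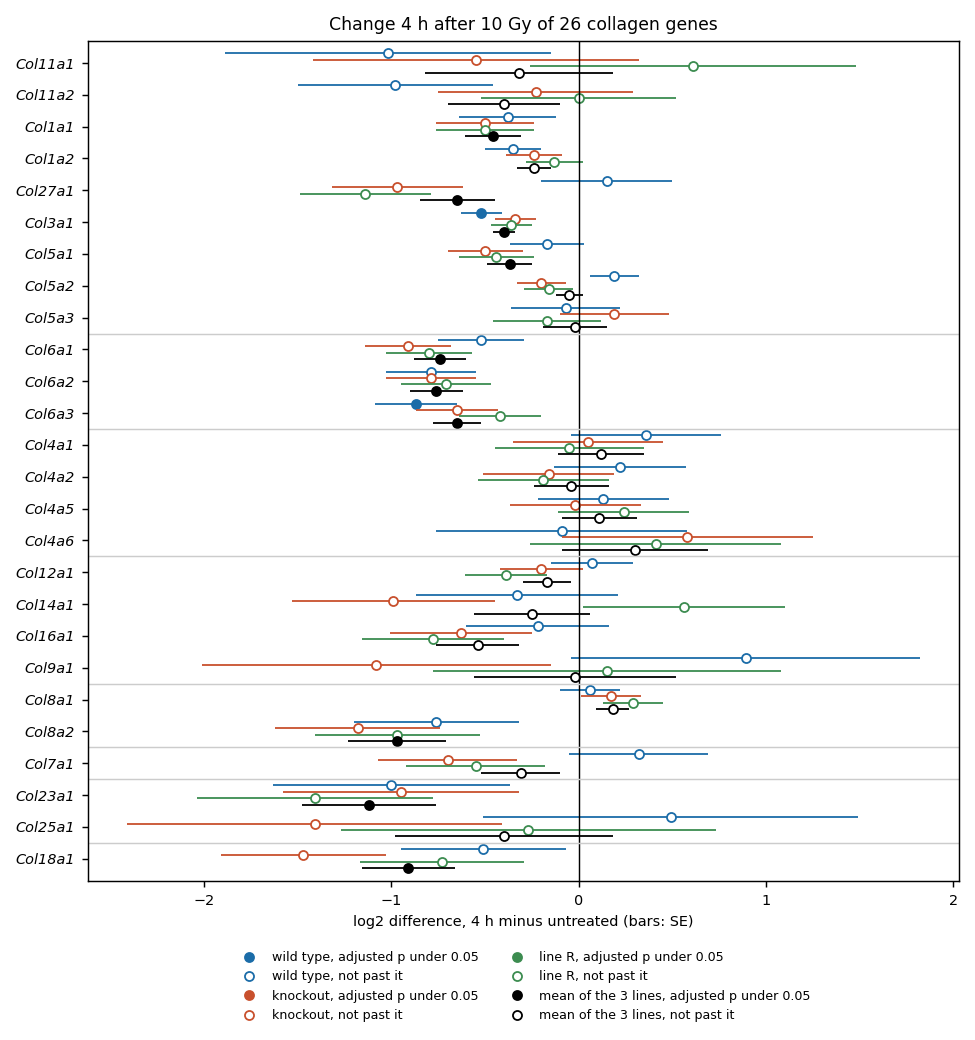
Change from untreated to 4 h after 10 Gy for the 26 collagen genes above background in some group, as log2 differences with bars of 1 SE, in wild type (blue), the knockout (orange), line R (green) and averaged over the 3 lines (black). Filled points had a limma adjusted p below 0.05, and grey lines part the collagen classes. The black points of the type VI chains, in the second block from the top, lie at -0.65 to -0.76. Those of the type IV chains lie near 0. Col4a6, Col9a1, Col11a1, Col11a2, Col14a1 and Col25a1 were below background in most groups.

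At 24 h no collagen gene was called in any line, nor on the average over the lines. Few genes of any kind were: 0.0495% of all genes in wild type, 0% in the knockout and 0% in line R, and on the average 0.209% were higher and 0.104% lower. In wild type 5 collagen genes, in the knockout 1 and in line R 2 had an unadjusted p below 0.05 by limma, and on the average 3 had; the shares of all genes were 9.59%, 5.85%, 4.56% and 13.7%. Col3a1 ran from 23033 to 24291 in wild type at 24 h, between its 4 h and untreated arrays. Col6a1 read 8387, 9546 and 12286 in line R and overlapped the untreated arrays, while in wild type it read 6602, 5435 and 6194, below all untreated ones (-0.49 ± 0.23, limma adjusted p = 0.52). The differences between lines in the response were tested in 6 comparisons, and limma called no collagen gene in any of them, where between 0% and 0.0165% of all genes were called (0.011%, 0.0055%, 0.0165%, 0.0055%, 0% and 0.0055%). The 95% intervals were wide: the response of Col6a1 at 4 h differed between knockout and wild type by -0.39 (interval -1.08 to 0.30) and that of Col6a3 by 0.21 (interval -0.43 to 0.86), so the lines are not shown to respond alike.

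Genes that make, export and bind collagen were read from lists chosen with earlier results of these data known. Of 19 measured genes that fold or modify collagen, 4 were higher and 3 lower in the untreated knockout than in wild type, and 6 were higher and 3 lower in line R. For these untreated comparisons, here and for the lists below, 7.77% of all genes were higher and 9.83% lower in the knockout, and 9.39% each way in line R. Plod2, which hydroxylates lysines of the collagen telopeptide, was 3.41-fold lower in the knockout (-1.77 ± 0.25, limma adjusted p = 2.5e-05) and 4.30-fold lower in line R (-2.11 ± 0.25, adjusted p = 2.7e-06). Plod1, which acts on lysines of the helix, went the other way, 1.79-fold higher in the knockout (0.84 ± 0.15, adjusted p = 0.0003) and 2.15-fold higher in line R (1.11 ± 0.15, adjusted p = 1.4e-05). Fkbp9, a prolyl isomerase of the endoplasmic reticulum, was 1.45-fold and 1.66-fold higher. P4ha1, a catalytic subunit of prolyl 4-hydroxylase, was 1.71-fold lower in the knockout (-0.77 ± 0.17, adjusted p = 0.0024) and 1.98-fold lower in line R (-0.98 ± 0.17, adjusted p = 0.00024).

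Of 12 measured genes for procollagen export and propeptide cleavage, 4 were higher in the untreated knockout and none lower, and 2 were higher and 2 lower in line R, beside the same shares of all genes. Bmp1, the protease that removes the C-propeptide of fibrillar procollagens, was 2.18-fold higher in the knockout than in wild type (1.12 ± 0.25, limma adjusted p = 0.0024) and 1.90-fold lower in line R than in the knockout (-0.93 ± 0.25, adjusted p = 0.038). Pcolce2, an enhancer of that protease, was higher in the knockout (3217) and in line R (3661) than in wild type (1605; adjusted p = 0.0026 and 0.00053). Of 8 measured collagen receptors 1 was higher and none lower in the knockout, and 2 were higher and 1 lower in line R, counts too small to set apart from the 7.77% to 9.83% of all genes called. The hyaluronan and collagen receptor Cd44 was higher in both, 1.85-fold and 1.84-fold. Itga1, the alpha subunit of an integrin that binds type IV collagen, was 3.46-fold lower in line R than in wild type (-1.79 ± 0.27, adjusted p = 6.4e-05) and 2.97-fold lower than in the knockout (-1.57 ± 0.27, adjusted p = 0.0023), as were Col4a1 and Col4a2.

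Of 15 matrix proteins that bind collagen, 2 were higher and 3 lower in the untreated knockout, and 4 were higher and 5 lower in line R, where 7.77% and 9.83% of all genes were called in the knockout and 9.39% each way in line R. Dcn (decorin, which coats type I fibrils) stepped down from 14620 in untreated wild type to 4425 in the knockout and 1206 in line R, and all 3 pairs of lines were past the threshold (limma adjusted p = 0.0001, 8.5e-09 and 0.0005). Postn (periostin, a scaffold for collagen and Bmp1) rose from 4062 to 16199 and 13740 (adjusted p = 2e-05 and 8.1e-05). At 4 h 4 of the 15 were lower in wild type and none higher, where 1.74% of all genes were lower and 1.51% higher: Postn by -1.83 ± 0.27 (adjusted p = 0.0022), Thbs2 by -1.41 ± 0.22 (adjusted p = 0.0033), Fmod by -1.68 ± 0.42 (adjusted p = 0.031) and Dcn by -1.08 ± 0.27 (adjusted p = 0.034). On the average over the lines at 4 h, 7 of the 19 folding and modifying genes were lower and none higher, where 8.92% of all genes were lower and 6.55% higher, with P3h4 at -0.45 ± 0.07 (adjusted p = 0.00053), P3h1 at -0.56 ± 0.10 (adjusted p = 0.00087), Plod1 at -0.43 ± 0.08 (adjusted p = 0.002) and Ppib at -0.31 ± 0.07 (adjusted p = 0.0058). Beside the same shares of all genes, of the 15 binding proteins 6 were lower and none higher on that average, of the 12 export and cleavage genes 2 were higher and 1 lower, and of the 8 receptors 1 was higher and 3 lower. Cd44 was the receptor that was higher (0.53 ± 0.10, adjusted p = 0.0017), and Ddr2, a receptor kinase for fibrillar collagen, was among those lower (-0.44 ± 0.10, adjusted p = 0.0074).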

How the data were processed

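The authors deposited intensity values on a linear scale, 1 column per array for 45101 Affymetrix probe sets; per the labels' protocols the RNA was obtained with TRIZOL and carried a biotin label. Each column has a mean of 500.003 once the lowest and highest 2% are removed, so the arrays had been scaled before deposit. RMA and GCRMA are named without versions or roles in the submitters' processing notes, but the deposited values run from 0.00523 to 45330 on a linear scale, with array medians of 54.38 to 80, unlike the output of either, so the summary method is not known. The files' genome build is not given in the sources used here.

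Values were taken to log2 with no offset and no further normalization. Genes with a probe set of a single symbol, named through the platform annotation and the RefSeq gene table, were represented by their brightest probe set (18193 genes; 64 control probe sets set aside). The main model had 9 group means in limma 3.58.1 with R 4.3.3 (18 residual degrees of freedom). It was used for 18 contrasts, and 2 more, averaged over the lines, were added after the data were seen. Tests were two-sided, adjusted within each contrast. Whether the titles' replicate numbers pair the arrays was not settled. Over 108 pairs of same-numbered arrays in different groups the correlation of deviations ran from -0.79 to 0.83 (median 0.034). Of the 27 arrays, 14 correlated best with arrays of their own number. The numbers of arrays limit the precision, and intensities carry no counting depth. Replicates are called biological in the labels but stem from 1 line each.

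The collagen genes, the classes and the lists of partner and marker genes were chosen with earlier results of these data known. All collagen genes above background in some group were to be named with values. Values on every array were given for at most 12 genes called by irradiation or between untreated lines, those with the largest change above background. At most 4 members were named per partner list and comparison, by smallest p in at least 1 comparison. P4ha1 was named by its p in line R, and in the untreated knockout Colgalt1 had a smaller p. Not every call was named. Left out at 4 h were Pcolce2, higher in wild type, and Plod1 and P3h4, lower in line R (limma adjusted p = 0.04, 0.042 and 0.029). Alternatives were the replicate number as a block, quantile normalization, genes above the median level, a prior variance that follows intensity, equal array medians, an offset of 50 before log2, the mean of all probe sets, the compared arrays only, and leaving out each array, the 1 array beyond the widest gap in the Gapdh ratio, and (added later) the 5 arrays with a log2 ratio above -0.2. Promoter windows were RefSeq's on GRCm38.p6, for 33 of 42 genes.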

Additional observations from a re-analysis of the deposited data

How the results depend on the processing

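No difference of a named collagen gene changed sign past the threshold under any alternative: of 2111 recomputed values of 89 called differences, 1848 stayed past the threshold in the same direction, 263 fell short of it and 0 reversed. With the replicate number as a block (replicate block), 12 collagen genes were called for the untreated knockout against wild type. Untreated line R had 13 against wild type and 2 against the knockout, and wild type at 4 h had 3. The block moved no count by over 1.5 times. Whether the numbers pair the arrays was not settled. For wild type at 4 h, where 2 collagen genes were called, equal array medians gave 1, the mean of all probe sets 1, the compared arrays only 0 and an offset of 50 gave 4, and leaving out 1 array gave 0 to 3. For the knockout at 4 h, where 0 were called, an intensity trend, genes above the median level and an offset of 50 gave 1 each. For line R at 4 h, where 0 were called, genes above the median level gave 3, and an intensity trend, an offset of 50 and the mean of all probe sets 1 each, and leaving out 1 array 0 to 2. Among genes above the median level the count for the untreated knockout against wild type was 7 rather than 12, for line R against wild type 7 rather than 13, and for the knockout averaged over conditions 10 rather than 17; fewer genes enter that fit. On the compared arrays only, with fewer arrays for the variance, untreated line R had 7 against wild type and 0 against the knockout. The count of 14 for line R against the knockout averaged over conditions ran from 7 to 12 when 1 array was left out, and the 10 genes lower at 4 h averaged over the lines from 6 to 13. Equal array medians moved the median of all genes by up to 0.272. The cause of these shifts was not tested. Weak signals near the background level limit what can be said of Col9a1, Col11a2, Col5a3 and Col25a1.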
